A study of Mus musculus with 24 samples.

Results

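The aminoacyl-tRNA synthetases are the enzymes that join each amino acid to its tRNA. The 36 synthetase genes described here were taken by symbol from the authors' gene table of 55487 genes. They comprised 20 genes for cytosolic enzymes and 16 for enzymes that work in mitochondria, and Mars1 appeared in the table under its older symbol Mars. All 36 passed the filter on low counts, which kept 14535 genes for testing. The rule that chose them uses no measured value, though the members were chosen with earlier results of these data known.

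A synthetase recognises 1 amino acid and the tRNAs that decode it, and the charged tRNAs supply the ribosome. Mammalian cells keep separate sets for cytosolic and mitochondrial translation, all encoded in the nucleus; Kars and Gars serve both compartments, and Eprs joins the enzymes for glutamate and proline in a single protein. Transcripts of many cytosolic synthetases are known targets of ATF4, a transcription factor made when amino acids are scarce or the endoplasmic reticulum is stressed, and Wars is also known to be induced by interferon gamma.

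Polyadenylated RNA was sequenced from bone-marrow-derived dendritic cells (BMDC), which are grown from mouse marrow in medium containing GM-CSF, and the series asked how control and Arpc4-deleted cells differentiate from day 7 to day 10 of culture. Arpc4 is a subunit of the Arp2/3 complex, which nucleates branched actin. Control mice were ARPC4 Flox/Flox CD11c-Cre -/- (WT below) and knockout mice were ARPC4 Flox/Flox CD11c-Cre +/- (KO below), so the floxed alleles were common to both and deletion was limited to cells in which the CD11c promoter had driven Cre. Marrow came from male and female mice of 8 to 10 weeks, cells were replated in fresh medium on day 7 and once before, and only the suspended cells were collected. Each genotype was sampled on days 7, 8, 9 and 10 with 3 mice per group (63, 65 and 66 for WT, 64, 67 and 68 for KO), giving 24 libraries in 8 groups from 6 numbered mice.

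Libraries held 19952047 to 31049798 counts. Arpc4 counts did not pass the test on any day by edgeR, with log2 fold changes of KO against WT of -0.19, -0.19, -0.18 and -0.28 and adjusted p of 0.18, 0.69, 0.43 and 0.22 for days 7 to 10; counts per gene do not resolve a deleted exon. On day 7 it was at 188 to 199 CPM (reads of the gene relative to the scaled library size) in WT and 155 to 182 CPM in KO, on day 8 at 246 to 270 and 223 to 231 CPM, on day 9 at 219 to 238 and 199 to 204 CPM, and on day 10 at 208 to 242 and 173 to 185 CPM. The genotypes did not overlap on any day. In every group 1 library had high Ddx3y, a Y-linked gene, and the others had high Xist. The high library was always mouse 63 in WT, but in KO it was mouse 64 on days 7 and 9, mouse 68 on day 8 and mouse 67 on day 10, so by these genes the KO mouse numbers did not follow the same animals across days; comparisons by genotype and day do not use the numbers. Of the 8 dendritic cell markers, Itgax (which encodes CD11c), Csf2rb, Cd74, H2-Ab1 and Ccr7 were present throughout, with Itgax at 474 TPM or more, but Flt3, Zbtb46 and Cd209a were at 1.02 TPM or less in WT on day 7 and as low as 0.39, 0.68 and 0.43 TPM over all libraries. The T cell marker Cd3e and the natural killer cell marker Ncr1 were at 0.29 TPM or less; Cd79a, a B cell marker, reached 2.97 TPM, and Nkg7, found in natural killer and T cells, reached 10.6 TPM.

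Cytosolic synthetase mRNAs were the more abundant set. On the scale of TPM (abundance corrected for gene length and library total), the mean over the 24 libraries ran from 18.9 for Cars to 113 for Nars among cytosolic genes, with a median of 46.8 TPM. The mitochondrial genes ran from 2.63 TPM for Mars2 to 27.0 TPM for Iars2, with a median of 7.74 TPM. Nars (113 TPM) and Gars (107.7 TPM) led the order, and their ranges over libraries, 98.4 to 133 TPM and 68.9 to 143 TPM, overlapped. The levels of the compartments overlapped at a single place in the order: Iars2 and Rars2 (22.4 TPM) stood above the cytosolic Eprs (21.6 TPM), Yars (20.5 TPM) and Cars. The smallest count of any cytosolic gene in a library was 664 and that of any mitochondrial gene was 82. Standard errors of the day 7 log2 fold changes had a median of 0.0738 for cytosolic and 0.114 for mitochondrial genes.

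On day 7, 10 of the 20 cytosolic synthetases were lower in KO than in WT cells, and no mitochondrial one passed the test. The 10 were called by edgeR's quasi-likelihood test at a Benjamini-Hochberg adjusted p under 0.05 over all genes, and no cytosolic gene was called higher; 0 of the 16 mitochondrial genes were called. The background was 1.45% of all genes called, and 0.619% called lower. At these shares, 0 calls among 16 mitochondrial genes tells nothing about that set. At an unadjusted p under 0.05, reached by 15.7% of all genes, the numbers were 15 cytosolic and 0 mitochondrial genes, and DESeq2 and limma on TPM likewise called 0 mitochondrial genes. The median log2 fold change was -0.29 for the cytosolic set, -0.08 for the mitochondrial set and -0.01 for all genes tested. In bulk RNA, fewer cells of a type and less RNA per cell cannot be told apart.

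**Figure D1:**
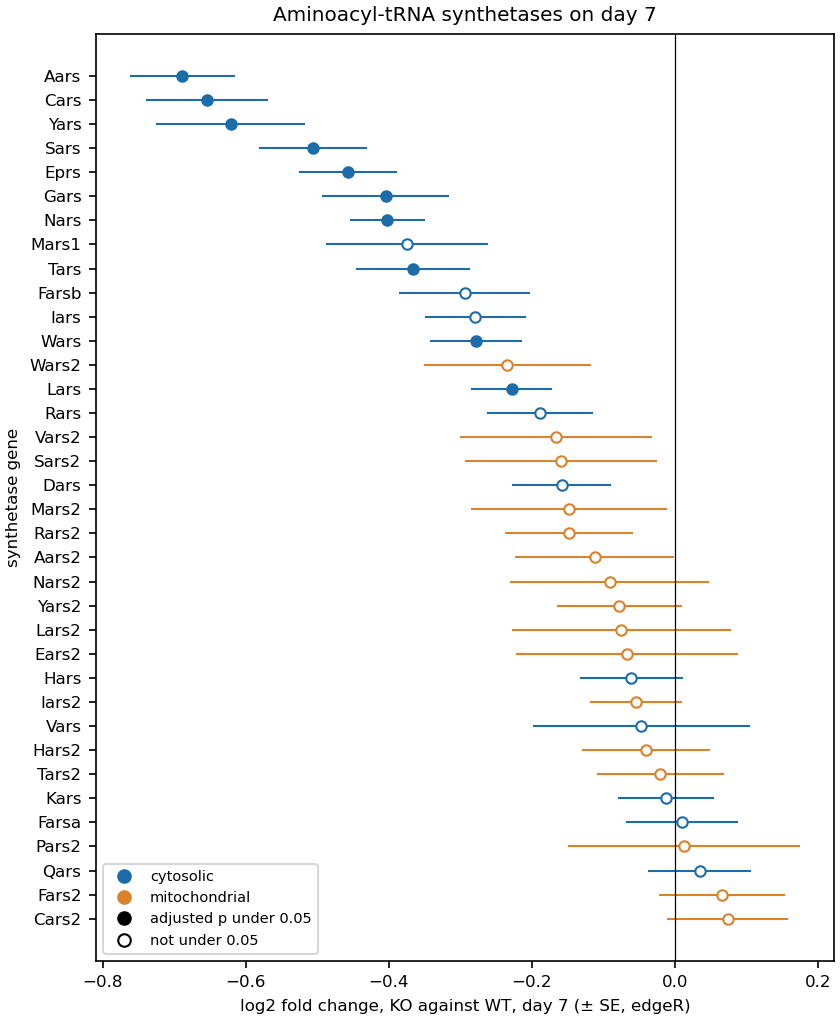
Log2 fold change of KO against WT on day 7 for each of the 36 synthetase genes (x axis), with bars of ± 1 standard error from edgeR, 3 mice per genotype, and filled points where the adjusted p was under 0.05. The 10 filled points are all cytosolic genes and all lie left of 0, from -0.69 for Aars to -0.23 for Lars.

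The furthest apart were the alanyl and cysteinyl enzymes. Aars (chr8:111033144-111057664, forward strand, GRCm38), the alanyl-tRNA synthetase, was at 164, 182 and 196 CPM in WT mice 63, 65 and 66 and at 111, 113 and 112 CPM in KO mice 64, 67 and 68. The KO libraries lay within 2 CPM of each other and all under the lowest WT library; means were 181 ± 15.9 and 112 ± 0.917 CPM (SD, n = 3; log2 fold change -0.69, SE 0.0735, edgeR adjusted p = 4.1e-05). Cars (chr7:143557230-143600090, reverse strand), the cysteinyl-tRNA synthetase, was at 58.8, 67.0 and 68.4 CPM in WT and 40.0, 42.4 and 40.9 CPM in KO. Again no KO library reached a WT value (log2 fold change -0.65, SE 0.0854, edgeR adjusted p = 0.00035). Yars (chr4:129189760-129219607, forward strand), the tyrosyl-tRNA synthetase, was at 41.3, 42.2 and 50.9 CPM in WT and 29.7, 28.5 and 29.2 CPM in KO. WT mouse 66 was the high library, and the groups were still apart without it (log2 fold change -0.62, SE 0.104, edgeR adjusted p = 0.0055).

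Sars, Nars and Eprs, which charge serine, asparagine and glutamate with proline, were among the most abundant of the set by counts and were lower by a smaller step. Sars (chr3:108424865-108445209, reverse strand) was at 147, 156 and 175 CPM in WT and 109, 115 and 112 CPM in KO. The lowest WT library was above the highest KO library (log2 fold change -0.51, SE 0.0749, edgeR adjusted p = 0.0013). Nars (chr18:64499647-64516652, reverse strand) was at 202, 215 and 219.9 CPM in WT and 158, 162.5 and 161 CPM in KO. The lowest WT library was 202 CPM and no KO library reached it (log2 fold change -0.40, SE 0.0523, edgeR adjusted p = 0.00035). Eprs (chr1:185363044-185428360, forward strand) was at 143, 158 and 155 CPM in WT and 123, 103 and 106 CPM in KO. KO mouse 64 was closest to WT, and no values overlapped (log2 fold change -0.46, SE 0.0682, edgeR adjusted p = 0.0013).

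Gars, Tars, Wars and Lars had the highest adjusted p of the 10. Gars (chr6:55038007-55079500, forward strand), the glycyl-tRNA synthetase of both compartments, was at 102, 113 and 121 CPM in WT and 78.4, 92.6 and 82.9 CPM in KO (log2 fold change -0.40, SE 0.0889, edgeR adjusted p = 0.028). Tars (chr15:11382301-11399665, reverse strand), the threonyl-tRNA synthetase, was at 53.4, 51.3 and 51.6 CPM in WT and 38.8, 40.8 and 41.6 CPM in KO (log2 fold change -0.37, SE 0.0798, edgeR adjusted p = 0.027). Neither gene's groups overlapped. Wars (chr12:108860030-108894174, reverse strand), the tryptophanyl-tRNA synthetase, was at 60.5, 60.6 and 66.6 CPM in WT and 54.6, 46.3 and 53.9 CPM in KO (log2 fold change -0.28, SE 0.0644, edgeR adjusted p = 0.035). Lars (chr18:42202298-42262194, reverse strand), the leucyl-tRNA synthetase, was at 59.97, 62.9 and 61.7 CPM in WT and 55.9, 53.2 and 48.4 CPM in KO (log2 fold change -0.23, SE 0.0569, edgeR adjusted p = 0.049). Both were lower in all 3 KO libraries, and Lars lay closest to the threshold.

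The other 10 cytosolic genes fell into a group that was lower without passing the test and a group whose libraries overlapped. Iars, the isoleucyl-tRNA synthetase, had a log2 fold change of -0.28 (edgeR adjusted p = 0.053), at 67.8, 75.5 and 74.1 CPM in WT and 63.4, 60.1 and 55.7 CPM in KO. Mars1 (-0.38), Farsb (-0.29), Rars (-0.19) and Dars (-0.16), which charge methionine, phenylalanine, arginine and aspartate, also had no KO library above a WT library. For Qars, Farsa, Kars, Vars and Hars the groups overlapped, with log2 fold changes from -0.06 for Hars to 0.04 for Qars; Qars, which charges glutamine, was at 86.2, 84.4 and 94.0 CPM in WT and 88.2, 91.6 and 91.3 CPM in KO. Farsa and Farsb encode the subunits of a single phenylalanyl enzyme. KO libraries were below all WT libraries for 15 of 20 cytosolic genes and 3 of 16 mitochondrial genes, against 14.2% of all genes.

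Leaving out the libraries of 1 mouse number changed the number of cytosolic genes called on day 7, to 6 without mouse 63, 5 without mouse 65, 3 without mouse 66 and 6 without mouse 68, and scaling by library totals alone gave 6 and limma on TPM gave 5. Aars, Cars and Nars were called in all 15 alternative fits, Eprs and Sars in 14 and Yars in 12, whereas Tars was called in 8, Gars in 7, Wars in 5 and Lars in 3; each of the 10 genes was lower in KO in every one. Without the 8 libraries with high Ddx3y, 10 genes were called, beside 2.22% of all genes in that fit.

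The mitochondrial genes with the largest day 7 estimates were Wars2 and Vars2, the mitochondrial tryptophanyl and valyl enzymes. Wars2 was at 7.79, 7.069 and 7.62 CPM in WT and 7.065, 6.04 and 6.00 CPM in KO, with means of 7.49 ± 0.375 and 6.37 ± 0.603 CPM (SD, n = 3), a log2 fold change of -0.23 (SE 0.117) and an edgeR adjusted p of 0.34. Vars2 was at 14.1, 14.1 and 14.4 CPM in WT and 13.0, 11.9 and 13.0 CPM in KO (log2 fold change -0.17, SE 0.134, edgeR adjusted p = 0.59). In neither gene did a KO library reach a WT library, and in Wars2 the highest KO and lowest WT values were almost equal. The other 14 mitochondrial genes had log2 fold changes between -0.16 for Sars2 and 0.07 for Cars2. Pairing each cytosolic gene with the mitochondrial gene for the same amino acid gave 15 pairs, with Fars2 set beside both Farsa and Farsb and with Eprs, which serves 2 amino acids, left out, and the cytosolic estimate was the lower in 14 of them, by a median of 0.23 on the log2 scale; Vars and Vars2 were the exception. Cars at -0.65 beside Cars2 at 0.07 was the widest pair. Whether the compartments differed was not tested.

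Promoter sequences are shown for the cytosolic genes in which the core of the C/EBP-ATF response element, the sequence through which ATF4 and C/EBP factors are known to act, was found, with Tars2 as a mitochondrial counterpart without it. Each runs 5′ to 3′ on the strand of the gene, from 150 bases before the RefSeq start to 30 bases from it, and capitals mark TGATGNAA on either strand.
Aars: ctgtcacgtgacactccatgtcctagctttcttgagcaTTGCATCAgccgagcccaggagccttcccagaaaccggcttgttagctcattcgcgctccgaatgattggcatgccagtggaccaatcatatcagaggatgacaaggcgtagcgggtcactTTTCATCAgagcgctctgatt
Gars: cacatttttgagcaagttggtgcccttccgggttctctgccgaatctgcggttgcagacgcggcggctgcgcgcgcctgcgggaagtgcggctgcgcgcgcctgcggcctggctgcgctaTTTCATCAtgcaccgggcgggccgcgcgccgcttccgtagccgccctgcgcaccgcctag
Iars: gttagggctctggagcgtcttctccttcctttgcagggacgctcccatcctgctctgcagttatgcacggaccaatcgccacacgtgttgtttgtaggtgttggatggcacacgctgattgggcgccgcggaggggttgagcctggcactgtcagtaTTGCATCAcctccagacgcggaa
Tars: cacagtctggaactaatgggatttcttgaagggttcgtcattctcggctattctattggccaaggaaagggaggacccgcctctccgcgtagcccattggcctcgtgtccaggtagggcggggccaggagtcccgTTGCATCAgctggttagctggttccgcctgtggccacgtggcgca
Yars: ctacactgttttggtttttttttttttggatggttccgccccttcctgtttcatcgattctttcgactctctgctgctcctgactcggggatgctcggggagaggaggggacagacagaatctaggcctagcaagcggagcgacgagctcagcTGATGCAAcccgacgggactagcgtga
Tars2: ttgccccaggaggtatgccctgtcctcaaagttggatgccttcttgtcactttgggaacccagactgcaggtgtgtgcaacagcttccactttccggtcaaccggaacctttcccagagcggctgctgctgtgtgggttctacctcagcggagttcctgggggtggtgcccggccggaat

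These windows are RefSeq sequence on GRCm38.p6, at chr8:111033692-111033871 (forward strand) for Aars, chr6:55037851-55038030 (forward) for Gars, chr13:49681980-49682159 (forward) for Iars, chr15:11399629-11399808 (reverse) for Tars, chr4:129189753-129189932 (forward) for Yars and chr3:95754948-95755127 (reverse) for Tars2. RefSeq promoters were counted for 27 of the 36 genes, 13 cytosolic and 14 mitochondrial. Cars, Rars, Vars, Wars and Pars2 were not matched. Members on chromosome 18 (Hars, Lars, Nars and Hars2) were left out of the member counts, while the share over all promoters was taken without this exclusion. Lars and Nars were among the genes lower in KO on day 7. Before the exclusion no TGATGNAA site was recorded for the genes left out, so member shares that included them could not be higher. Over full windows of 300 bases, TGATGNAA was found in 5 of 13 cytosolic and 0 of 14 mitochondrial promoters, beside 3.97% of 32851 promoters of the same length. Aars held it at 112 bases before and 10 bases after the start, Tars and Gars at 15 and 30 bases before, and Yars and Iars at 4 and 8 bases after. The TGATGNAA core was in 4 of the 6 counted cytosolic genes that were lower in KO on day 7 (Aars, Gars, Tars and Yars, the others being Eprs and Sars). It was in 1 of the 7 counted cytosolic genes not called. The core of the interferon-stimulated response element, searched on both strands as GAAA, any 2 bases and GAAA again, was found in Qars alone among the 27 and in 3.44% of all promoters; it overlapped no TGATGNAA match. A match describes the letters in the window and shows no binding.

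Some other genes that ATF4 is known to induce were called on day 7, in a list chosen with earlier results of these data known. Any part of ATF4 in the synthetase values was not tested. Of 27 tested ATF4 targets that are not synthetases, 7 were called, all lower in KO, and 25 of 27 estimates were below 0 with a median log2 fold change of -0.50, against 1.45% of all genes called and a median of -0.01. Asns, which makes asparagine, was at 33.2 to 47.4 CPM in WT and 11.2 to 14.5 CPM in KO (log2 fold change -1.64, SE 0.157, edgeR adjusted p = 1.1e-05). Phgdh and Psat1, enzymes of serine synthesis, had log2 fold changes of -1.53 (edgeR adjusted p = 0.043) and -1.51 (edgeR adjusted p = 0.00024). Trib3, a pseudokinase that feeds back on ATF4, and Mthfd2, of mitochondrial folate metabolism, had -1.11 and -1.10 (edgeR adjusted p = 0.00046 and 0.0091). These 5 genes were picked for passing the test with the largest changes, and none overlapped between genotypes. Of all genes, 14.2% were lower in KO without overlap. DESeq2 called 9 targets and limma on TPM 4, and leaving out 1 mouse number gave 3 to 8.

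Genes that work beside the synthetases were counted in the same fit, where 1.45% of all genes were called and 15.7% had an unadjusted p under 0.05; at these shares, 0 calls in lists this short tells nothing about the lists. A list of 16 partners of tRNA charging held scaffold proteins of the multi-synthetase complex, editing factors, amidotransferase subunits and peptidyl-tRNA hydrolases. It also held Mtfmt, Pstk, Sepsecs and the synthetase-like Tarsl2. Among the 16, 0 were called by edgeR, DESeq2 or limma on day 7, 2 had an unadjusted p under 0.05, and the median log2 fold change was -0.05. Among 15 mitochondrial translation factors 0 were called by the same 3 tools, 1 had an unadjusted p under 0.05, and the median was -0.07. Of 10 interferon gamma response genes, the class to which Wars also belongs, 0 were called by edgeR or limma and 1 by DESeq2, 6 had an unadjusted p under 0.05, and all 10 estimates were above 0 (median 0.31), while Wars was lower.

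Other measures of the day 7 groups stood as follows. Summed TPM of 9 granulocyte markers was 5600 to 11400 in WT and 7940 to 22500 in KO, and that of 8 dendritic cell markers 2830 to 3550 in WT and 3480 to 4380 in KO. Members of these lists differed in direction. Log2 fold changes were below 0 for Ly6g (-0.29) and Retnlg (-0.67) and above 0 for the other granulocyte markers. They were below 0 for Itgax (-0.30) and Csf2rb (-0.03) and above 0 for the other dendritic cell markers. No marker in these lists passed the edgeR test. The 8 macrophage markers summed to 6170 to 6790 TPM in WT and 5840 to 7350 TPM in KO; 1 of them, Fcgr1, passed the test (log2 fold change 0.47, edgeR adjusted p = 0.02). Markers of mast cells and basophils (4 genes) summed to 39.7 to 58.3 TPM in WT and 47.7 to 179 TPM in KO. Of 12 proliferation genes, 11 had estimates above 0 (median log2 fold change 0.86); 0 were called by edgeR or limma and 2 by DESeq2, 8 had an unadjusted p under 0.05, and 8 were called by edgeR without the libraries with high Ddx3y, where 2.22% of all genes were called. The share of counts in the 10 most counted genes was 20.9 to 21.3% in WT and 17.2 to 20.2% in KO, lowest in KO mouse 67. The part of these measures in the lower synthetase mRNA was not tested.

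From day 8 onward no synthetase was called between genotypes, and hardly any gene was. By edgeR 0 of 36 were called on days 8, 9 and 10, with smallest adjusted p of 0.86, 0.73 and 0.61, and DESeq2 and limma on TPM also called 0 on each of these days. The background was 0.00688%, 0.00688% and 0.0138% of all genes called, or 1, 1 and 2 of 14535. At these shares, 0 calls among 36 genes tells nothing particular to the synthetases. At an unadjusted p under 0.05, reached by 5.91%, 8.15% and 7.3% of all genes, the numbers were 0, 0 and 1, the last being Lars on day 10 (unadjusted p = 0.031 by edgeR), with the KO estimate above WT. Aars on day 8 was at 125, 118 and 122 CPM in WT and 109.5, 119 and 125 CPM in KO, and on day 10 at 106.5, 109.5 and 124 CPM in WT and 122, 117 and 115 CPM in KO. The values that were apart on day 7 overlapped on both days. Median log2 fold changes of the cytosolic genes were 0.03, 0.02 and 0.06 on the 3 days, beside -0.02, 0.002 and 0.04 for the mitochondrial genes.

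**Figure D2:**
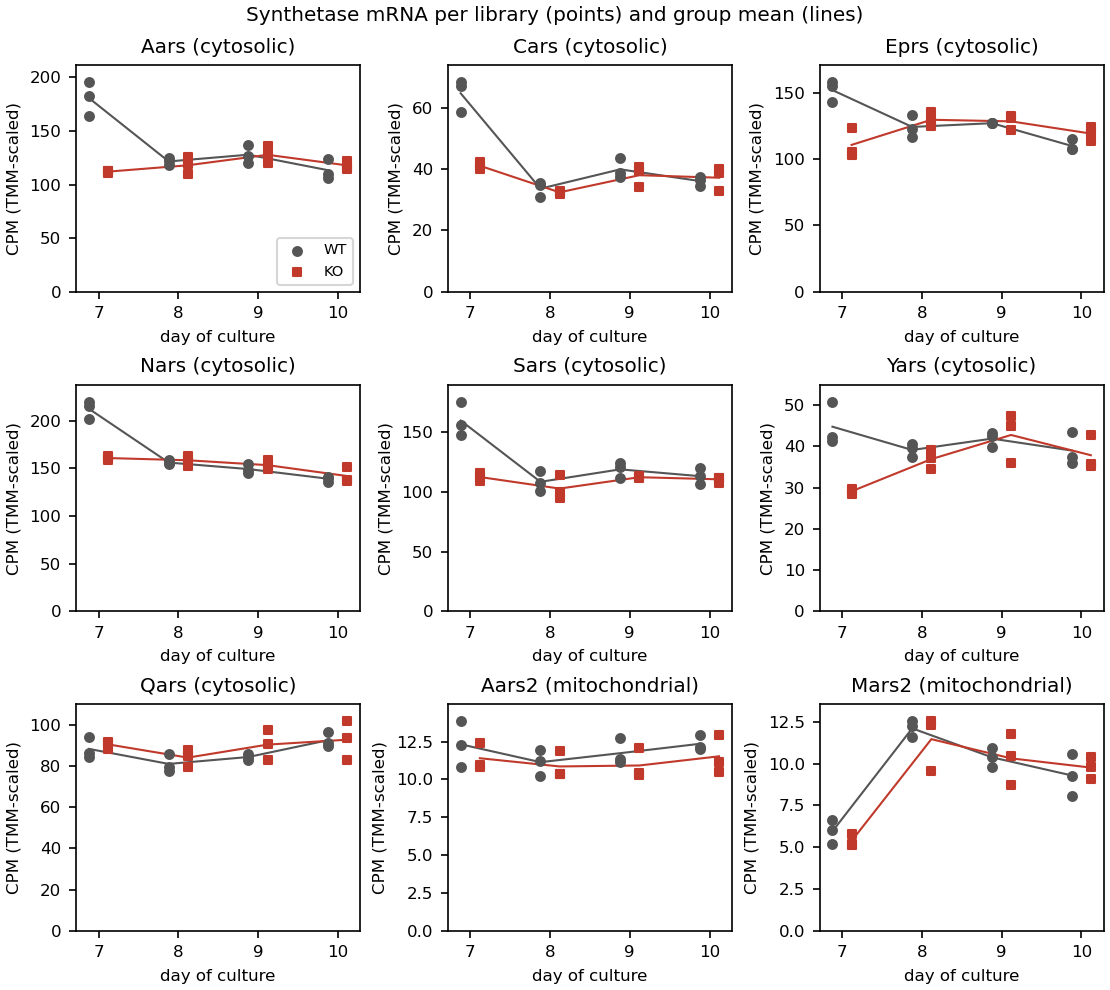
Normalised level (CPM with TMM factors, linear axes from 0) against day of culture for 6 cytosolic genes lower in KO on day 7, cytosolic Qars and mitochondrial Aars2 and Mars2, with 1 point per library and lines through the means of 3 mice. For the 6 genes the day 7 WT points lie above all day 7 KO points, and the genotypes overlap on day 8; Mars2 is lowest on day 7 in both genotypes.

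The balance between compartments was summarised per library. The mean log2 CPM of the 20 cytosolic genes minus that of the 16 mitochondrial genes, a difference in which library scaling cancels, was 2.45, 2.54 and 2.55 in WT on day 7 and 2.26, 2.31 and 2.29 in KO. All KO libraries were below all WT libraries, with group means of 2.29 ± 0.0229 and 2.51 ± 0.0532 (SD, n = 3), a difference of -0.22. With the median over members in place of the mean, the difference was -0.085. On days 8, 9 and 10 the genotype differences were 0.01, 0.007 and 0.02, smaller than the spread between mice of 0.0468 to 0.0534 (pooled SD), though the median over members gave 0.15 on day 10. From day 7 to day 8 the WT mean went from 2.51 to 2.31 and the KO mean from 2.29 to 2.32. This course rested on the mean: with the median over members the day 8 minus day 7 value was 0.14 in WT, the opposite sign, and 0.27 in KO. No p is given for this summary of many genes.

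On the TPM scale, summed cytosolic synthetase mRNA on day 7 was 899, 966 and 999.7 in WT and 791, 845 and 773.5 in KO, without overlap. Summed mitochondrial synthetase mRNA was 127, 132 and 128.5 TPM in WT and 129.5, 132 and 123 TPM in KO, with overlap. On day 8 the cytosolic sums were 1042 to 1105 TPM in WT and 1055 to 1230 TPM in KO, and the mitochondrial sums were 167 to 172.5 and 169 to 182 TPM. On this scale both genotypes were higher on day 8 than on day 7 in both sums, with no overlap between days, but the median log2 fold change of all genes was itself 0.17 on log2(TPM + 1) in each genotype. With TMM factors the mean log2 CPM of the cytosolic genes in WT went from 6.26 to 6.21, so the direction for cytosolic genes in WT turned with the scaling. The other medians stayed above 0 with TMM factors, at 0.285 for cytosolic genes in KO and 0.15 and 0.19 for mitochondrial genes in WT and KO.

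**Figure D3:**
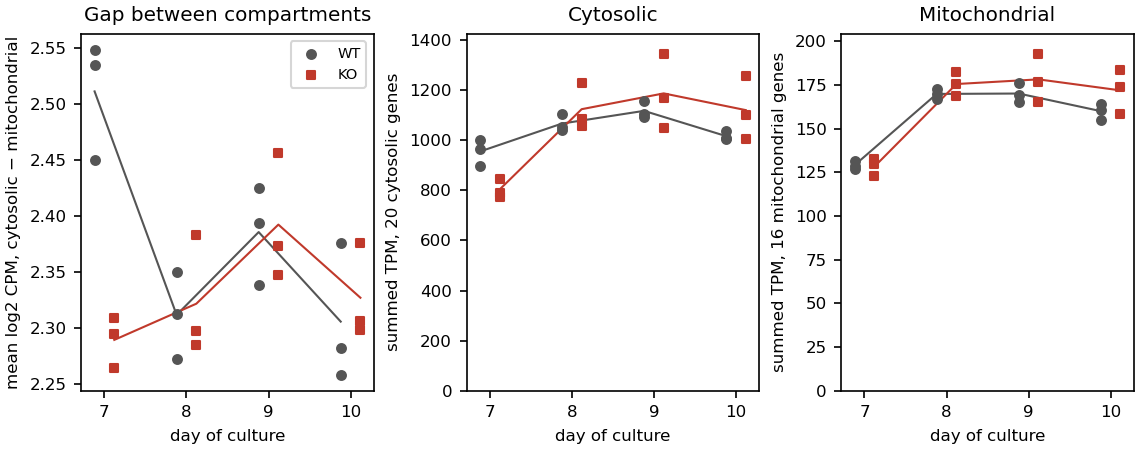
Left, mean log2 CPM of cytosolic minus mitochondrial synthetase genes per library (axis not from 0); centre and right, summed TPM of the 20 cytosolic and 16 mitochondrial genes (axes from 0), by day, with 1 point per library and lines through the means of 3 mice. On day 7 the KO points are below all WT points at left and centre, and the points of the genotypes overlap at right.

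Within WT cells, cytosolic synthetases moved in both directions between day 7 and day 10. By edgeR 13 of 20 cytosolic genes were called, 4 higher and 9 lower on day 10, and 3 of 16 mitochondrial genes, 2 higher and 1 lower, beside 37% of all genes (18.9% higher and 18.1% lower). The largest falls were Cars (log2 fold change -0.84, SE 0.0856, edgeR adjusted p = 5.7e-07), Aars (-0.67, SE 0.0734, edgeR adjusted p = 1.3e-06) and Nars (-0.61, SE 0.0524, edgeR adjusted p = 7.4e-08). Cars went from 58.8, 67.0 and 68.4 CPM on day 7 to 34.4, 36.4 and 37.6 CPM on day 10. The largest rises among cytosolic genes were Vars (0.48, edgeR adjusted p = 0.017), Farsa (0.30, edgeR adjusted p = 0.0048) and Hars (0.26, edgeR adjusted p = 0.0077). Of the mitochondrial genes, Mars2 (0.64, edgeR adjusted p = 0.00087) and Cars2 (0.39, edgeR adjusted p = 0.0011) rose and Fars2 (-0.26, edgeR adjusted p = 0.026) fell. Without mouse 65 or mouse 66 the number of genes called went from 16 to 9 or 10. Other measures moved with these days in WT. Summed TPM was 2830 to 3550 on day 7 and 8180 to 10300 on day 10 for dendritic cell markers. It was 5600 to 11400 and 17300 to 23700 for granulocyte markers, and 6170 to 6790 and 4090 to 4330 for macrophage markers. Of 12 proliferation genes 11 were called higher. The 10 most counted genes held 20.9 to 21.3% and 13.6 to 15.1% of counts. The part of these measures was not tested.

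In KO cells the called changes between day 7 and day 10 were mostly rises. Of the 36 genes 15 were called by edgeR, 13 higher and 2 lower on day 10, beside 36.8% of all genes (19.7% higher and 17.1% lower); 10 were cytosolic and 5 mitochondrial. Vars (log2 fold change 0.70, edgeR adjusted p = 0.0013), Iars (0.49, edgeR adjusted p = 2.8e-05) and Hars (0.44, edgeR adjusted p = 8.8e-05) led the cytosolic rises, and Nars (-0.18, edgeR adjusted p = 0.01) was the cytosolic fall. The mitochondrial changes were rises of Mars2 (0.86), Cars2 (0.39), Sars2 (0.37) and Yars2 (0.28) and a fall of Fars2 (-0.36). Over 16 alternative fits the rise of Sars2 no longer passed in 5. The fall of Fars2 did not pass in 2, with an estimate up to -0.047. The rises of Mars2 and Cars2 passed in all 16. Aars had an estimate of 0.07 (edgeR adjusted p = 0.47), at 111, 113 and 112 CPM on day 7 and 122, 117 and 115 CPM on day 10. Other measures moved with these days in KO. Summed TPM was 3480 to 4380 on day 7 and 7380 to 13500 on day 10 for dendritic cell markers. It was 5840 to 7350 and 3990 to 5580 for macrophage markers, and granulocyte sums overlapped. Of 12 proliferation genes 11 were called higher. The 10 most counted genes held 17.2 to 20.2% and 9.31 to 14.8% of counts. KO mouse 64 had the lowest share and the highest cytosolic sum (1255 TPM) on day 10. The part of these measures was not tested.

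The split between rises and falls depended on the scaling. Library totals alone and limma on TPM shifted the median log2 fold change of all genes between day 7 and day 10 from -0.01 to 0.22 and 0.21 in WT and from 0.003 to 0.22 and 0.25 in KO. The calls were then 14 higher and 5 lower, or 16 and 4, in WT, and 25 and 0, or 29 and 0, in KO. Relative to the median of all genes, the cytosolic median in WT was -0.18 with TMM factors and with library totals and -0.12 with TPM, and in KO it was 0.12, 0.12 and 0.16. The fall of Nars in KO became an estimate of 0.04 with library totals, and that of Fars2 in WT became 0.02 with TPM.

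Changes were already present on day 8. Between day 7 and day 8 edgeR called 20 of 36 genes in WT, 11 higher and 9 lower, beside 43.4% of all genes (21.5% higher and 22% lower). In KO it called 22, 20 higher and 2 lower, beside 42% (21.1% higher and 20.9% lower). With library totals the splits were 15 and 5 in WT and 22 and 0 in KO, and with TPM 17 and 4 and 24 and 0. Other measures moved from day 7 to day 8. Summed TPM of dendritic cell markers was 2830 to 3550 and 5040 to 5860 in WT, and 3480 to 4380 and 4770 to 8480 in KO. That of mast cells and basophils was 39.7 to 58.3 and 109 to 160 in WT, and overlapped in KO. Of 12 proliferation genes 8 were called higher and 1 lower in WT, and 2 and 1 in KO. The 10 most counted genes held 20.9 to 21.3% and 13.8 to 14% of counts in WT. In KO they held 17.2 to 20.2% and 9.93 to 14.5%. KO mouse 67 had the lowest share on day 8 and the highest cytosolic sum (1230 TPM). The part of these measures in the synthetase changes was not tested. Among the synthetases, Mars2 rose most in both genotypes, from 6.02, 5.20 and 6.63 CPM to 12.2, 11.6 and 12.5 CPM in WT (log2 fold change 1.02, edgeR adjusted p = 4.2e-06) and from 5.15, 5.79 and 5.19 CPM to 12.3, 12.5 and 9.55 CPM in KO (1.09, edgeR adjusted p = 2.1e-06). Its day 7 and day 8 libraries did not overlap in either genotype. Farsa (0.69 in WT, 0.62 in KO) and Hars (0.52 and 0.60) rose in both genotypes, and Cars fell in both (-0.94 and -0.34). Kars rose in WT (0.58) and in KO (0.58), and Iars rose by 0.40 and 0.75. Aars and Mars1 fell in WT (-0.57 and -0.58), and in KO their estimates were 0.08 and -0.13 and did not pass the test. Among the mitochondrial genes, Yars2 rose in both (0.51 and 0.63), Cars2 rose by 0.57 in WT and 0.35 in KO, Vars2 (-0.37) fell in WT, Ears2 (0.55) rose in KO and Fars2 fell in both (-0.26 and -0.33). Some falls depended on the processing. Over 16 alternative fits, that of Fars2 no longer passed in 7 in WT and 5 in KO, with estimates up to -0.03 and -0.09. That of Vars2 did not pass in 6, with an estimate up to -0.12. The fall of Cars in KO did not pass in 2, with an estimate up to -0.106, and that of Mars1 in WT in 1. Those of Cars and Aars in WT passed in all 16.

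The difference between the genotypes in these changes was itself tested. For day 10 against day 7, edgeR called 4 of 36 genes, all cytosolic, beside 0.0619% of all genes: Aars, Eprs, Nars and Cars. The change of Aars was greater in KO by 0.75 on the log2 scale (SE 0.104, edgeR adjusted p = 0.004), being -0.67 in WT and 0.07 in KO. Cars differed by 0.70 (SE 0.121, edgeR adjusted p = 0.024), with -0.84 in WT and -0.14 in KO. Eprs differed by 0.58 (SE 0.0963, edgeR adjusted p = 0.022), with -0.47 in WT and 0.11 in KO. Nars differed by 0.43 (SE 0.0738, edgeR adjusted p = 0.024), with -0.61 in WT and -0.18 in KO, and all 4 fell in WT by the test above. At an unadjusted p under 0.05, reached by 6.31% of all genes, there were 13 cytosolic and 0 mitochondrial genes. With the mouse number as a fixed replicate block, Aars (edgeR adjusted p = 0.025) and Eprs (0.039) passed and Nars (0.052) and Cars (0.066) did not. In KO this number need not be 1 animal by the Ddx3y and Xist values. Without the block, Sars and Lars followed the 4 in order of p (edgeR adjusted p = 0.15 for each).

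For day 8 against day 7, Aars (0.65, SE 0.104, edgeR adjusted p = 0.03) and Nars (0.42, SE 0.0738, edgeR adjusted p = 0.045) were called, beside 0.0275% of all genes, and Eprs was at an adjusted p of 0.06. With the mouse number as a fixed replicate block, 0 genes were called for day 8. The day 8 and day 10 differences share the day 7 libraries, which are also those of the day 7 comparison, so they are not separate evidence. Leaving out 1 mouse number, which in KO need not be 1 animal by the Ddx3y and Xist values, reduced the 4 genes of the day 10 difference to 1 without mouse 63, 64 or 66, to 2 without mouse 67 and to 0 without mouse 65 or 68, and the 2 genes of the day 8 difference to 1 without mouse 63 and to 0 without any of the others. No mouse number could be left out with all calls kept. Over 16 alternative fits of the day 10 difference, Aars passed in 12, Cars and Eprs in 7 each and Nars in 4. Estimates were 0.71 to 0.77 for Aars, 0.615 to 0.787 for Cars, 0.481 to 0.65 for Eprs and 0.363 to 0.465 for Nars.

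**Figure D4:**
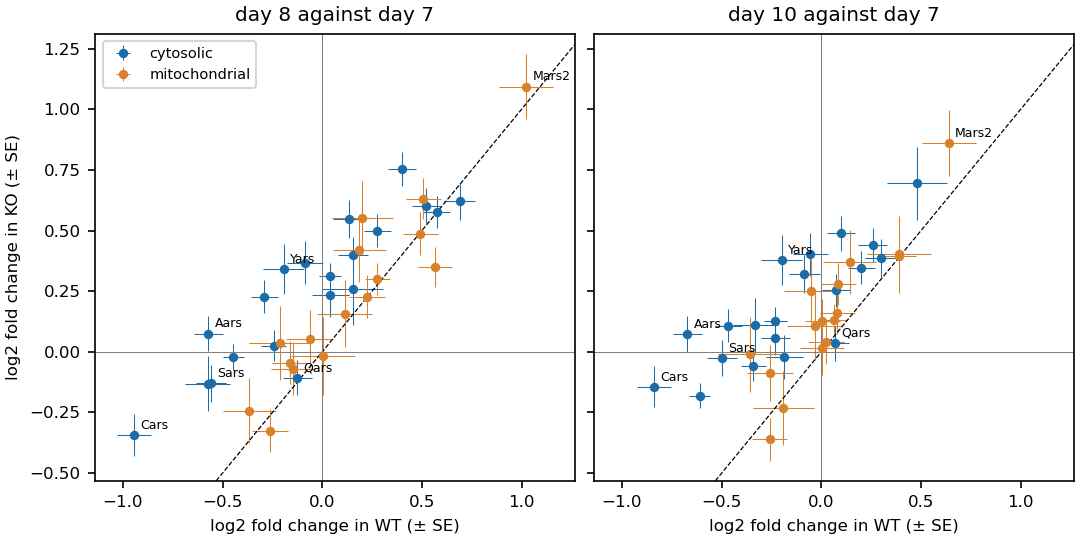
Log2 fold change in KO (y axis) against that in WT (x axis) for day 8 against day 7 (left) and day 10 against day 7 (right), with bars of ± 1 standard error from edgeR and the dashed line where the genotypes are equal. Aars, Cars and Sars lie left of 0 and above the line in both panels, and Mars2 lies at the upper right.

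Among other genes on which the count of a synthetase could depend, 8 of the 36 shared exon bases on the opposite strand with a gene counted at 5% or more of their own total, as annotated in GENCODE M21. These were Hars with Hars2 (195 bases), Mars1 with Ddit3 (68), Yars with C77080 (30), Cars2 with Naxd (422), Ears2 with Ubfd1 (89), Fars2 with Lyrm4 (115) and Iars2 with Rab3gap2 (2034), and Yars was the only member called on day 7 among them. The strand setting of the counting is not given in the sources used here, so reads in these shared bases could have been counted for either gene. Aars, also called on day 7, shared 1326 exon bases on the same strand with Exosc6, a protein-coding gene with 0 counts over all libraries. The 5% limit cannot flag such a gene, and how reads in those bases were assigned is not known.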

How the data were processed

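The authors deposited raw counts per gene and TPM per gene for 24 libraries, and a table pairing identifiers with symbols. The submitters' processing notes name FastQC 0.11.9, STAR 2.6.1, DESeq2 1.22.2 and the build mm10; the counter, its strand setting and the annotation are not given in the sources used here. Kits of more than 1 kind are named in the labels' protocols without saying which library used which. Identifier versions matched GENCODE M21 (GRCm38) for 55094 genes, all 36 synthetases among them, and positions come from that annotation, counted from 1.

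From the deposited counts, edgeR 4.0.16 (R 4.3.3) was run with filterByExpr over the 8 groups, TMM factors, 1 quasi-likelihood fit of all 24 libraries with 1 coefficient per group and 16 residual degrees of freedom, and Benjamini-Hochberg adjustment over 14535 genes, with a threshold of 0.05 and both directions tested. Standard errors were derived from each F statistic. Log2 CPM used a prior count of 2. The deposited TPM values were used for levels and, as log2(TPM + 1), for limma 3.58.1. Counts are PCR-amplified reads without molecular identifiers, so precision from depth covers counting error only.

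The members and gene lists were chosen with earlier results of these data known. Values per library are given for members called between genotypes or in a genotype difference, for Wars, and for the 2 mitochondrial members with the largest day 7 change; day changes name the 3 largest rises and falls per compartment, and other lists up to 5 called genes. Other genes were named after their values were seen. Values per library of Iars, Qars and Mars2 were likewise added after they were seen. 1 further marker gene of the lists and the summed level of its list are not reported here. Mouse numbers recur across days in the labels. Deviations from group means of same-numbered libraries over 11002 genes correlated with a mean of 0.36 in WT (0.02 to 0.61) and 0.006 in KO (-0.79 to 0.78), each over 18 pairs.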

Additional observations from a re-analysis of the deposited data

Results flagged for a closer look

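The results below stood out because a change over days differed between the genotypes by a direct test of that difference (edgeR, 3 mice per group). The day 10 against day 7 change was greater in KO by 0.43 on the log2 scale for Nars, 0.58 for Eprs, 0.70 for Cars and 0.75 for Aars. The day 8 against day 7 change was greater in KO by 0.65 for Aars and 0.42 for Nars. Both use the same day 7 libraries. With the mouse number as a fixed replicate block, Nars (edgeR adjusted p = 0.052) and Cars (0.066) no longer passed for day 10, and no gene passed for day 8. In KO that number need not be 1 animal. No group of 4 or more samples allowed a test for outlying libraries.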

How the results depend on the processing

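The number of synthetases called on day 7, 10 in the reported fit, was 6 with library totals and 5 with limma on TPM, 3 to 9 leaving out 1 mouse number, 11 with DESeq2 and 8 to 10 in the others. The day 10 against day 7 count of 15 in KO became 25 and 29 under totals and TPM (11 to 16 leaving out 1 mouse), and that of 16 in WT was 9 to 16 leaving out 1 mouse. The genotype difference for day 10 (4 genes) gave 1 with totals, 1 with TPM, 0 with only the groups compared, 2 without the libraries with high Ddx3y (an alternative chosen after seeing the data) and 0 to 2 leaving out 1 mouse. That for day 8 (2 genes) gave 4 with DESeq2, 1 without a filter, 0 with totals, TPM or only the groups compared, and 0 to 1 leaving out 1 mouse. The counts of 0 on days 8, 9 and 10 stayed 0 in all fits run.

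With the mouse as a fixed replicate block, the genotype differences gave 2 genes for day 10 and 0 for day 8; as a random block (consensus correlation 0.00464) 9 genes were called on day 7, 4 and 2 in the genotype differences. In WT 17 of 18 and in KO 8 of 18 same-numbered pairs correlated above 0.1.

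Taking the median over members instead of the mean changed the cytosolic minus mitochondrial difference to -0.085 (KO minus WT, day 7), 0.15 (day 10), 0.14 (day 8 minus day 7 in WT, the opposite sign) and 0.27 (in KO). TPM gave -0.145 and 0.089 for the day 8 minus day 7 values in WT and KO, and leaving out 1 mouse gave -0.25 to -0.16 in WT. For single genes, the reversals were Fars2 in WT (0.02, TPM) and Nars in KO (0.043, totals; 0.123, TPM), both day 10 against day 7; of all single-gene values 821 kept their side, 122 no longer passed and 2 newly passed. The causes were not tested. Mitochondrial genes had counts as low as 82 and a median standard error above the cytosolic one. Whether this limited their calls was not tested.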

Other observations

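Cytosolic synthetases were also grouped by known protein features, a grouping made after their values were seen and therefore not tested. Of the 8 that sit in the multi-synthetase complex, in which several synthetases are held together by scaffold proteins, 2 (Eprs and Lars) were called lower in KO on day 7, with a median log2 fold change of -0.21, beside 0.619% of all genes called lower; Lars was called in 3 of 15 alternative fits. Of the 12 outside it 8 were called, with a median of -0.38. By the fold of the catalytic domain, 4 of 9 class I genes and 5 of 10 class II genes were called, with medians of -0.28 and -0.33; Eprs holds both kinds of domain and was left out of that split.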
